A study of Mus musculus with 14 samples.

Results

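The claudins and tight junction proteins described here are 10 genes of the mouse ileum, taken from the deposited count table by their gene names, out of 54532 genes in all. They are 7 claudins (Cldn2, Cldn3, Cldn4, Cldn7, Cldn8, Cldn15 and Cldn23), Ocln, which encodes occludin, Tjp1, which encodes ZO-1, and F11r, which encodes JAM-A. Each name matched 1 row, and all 10 passed the filter on low counts. RNA of scraped ileum mucosa was sequenced from 7 WT and 7 IKO male mice, 1 library per mouse. Both groups carried the NCoR1 flox/flox alleles, which allow Cre recombinase to delete the nuclear receptor corepressor NCoR1. The IKO mice also carried Cre under the villin promoter, which is active in intestinal epithelial cells. Mice were 7 to 8 weeks old by the methods, though a legend gives an older age, when they began a high-fat diet (HFD) with 60% of its energy from fat, on which they stayed for 15 weeks. Diet and flox alleles did not differ between the groups, so the effect of the diet itself was not measured. The labels call the cells intestinal epithelial cells, but scraped mucosa holds other cells too, and a lower level in such bulk RNA cannot tell fewer cells of a type from less RNA per cell.

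Tight junctions seal the space between neighbouring epithelial cells close to their luminal side. Claudins are membrane proteins whose strands decide which ions and small molecules pass between cells, with some claudins forming pores and others closing the path. Occludin and JAM-A are further membrane proteins of the junction, and ZO-1 is the scaffold that ties them to the actin skeleton inside the cell.

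The sequence before the start of 4 members is printed, because Cldn2 varied most between mice among the well-counted members, Cldn3 had the smallest p in the count test, and Cldn7 and F11r moved together most closely. The windows are RefSeq sequences on build GRCm38.p6, on the plus strand, at chrX:139800558-139800807 for Cldn2, chr5:134985964-134986213 for Cldn3, chr11:69964529-69964778 for Cldn7 and chr1:171437311-171437534 for F11r. RefSeq entries were found for 8 of the 10 members, not for Cldn8 and Cldn23, and Cldn7 and Ocln each have a further start. Capitals mark matches, on either strand, to any of 6 short motifs that were searched. The TATA box, which places the start of many inducible genes, was searched as TATAAA. The GC box, a site for factors of the Sp family, was searched as GGGCGG. The site of the caudal factors Cdx1 and Cdx2 of the intestine was searched as TTTATG. The site of GATA factors was searched with the letters AGATAA. The HNF1 half-site, known from liver and gut genes, was searched as GTTAAT. The E-box of Snail factors, repressors of junction genes, was searched as CAGGTG. In the windows shown no match overlapped another.
Cldn2: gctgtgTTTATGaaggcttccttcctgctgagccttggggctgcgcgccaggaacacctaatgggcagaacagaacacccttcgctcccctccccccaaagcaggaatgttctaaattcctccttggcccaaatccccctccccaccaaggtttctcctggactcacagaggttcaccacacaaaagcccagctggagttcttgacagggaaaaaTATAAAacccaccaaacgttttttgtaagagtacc
Cldn3: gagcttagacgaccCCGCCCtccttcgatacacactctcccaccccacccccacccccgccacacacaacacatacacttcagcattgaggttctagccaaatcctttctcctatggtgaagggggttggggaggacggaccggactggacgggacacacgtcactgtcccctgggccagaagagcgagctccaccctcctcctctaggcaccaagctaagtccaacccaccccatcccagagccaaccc
Cldn7: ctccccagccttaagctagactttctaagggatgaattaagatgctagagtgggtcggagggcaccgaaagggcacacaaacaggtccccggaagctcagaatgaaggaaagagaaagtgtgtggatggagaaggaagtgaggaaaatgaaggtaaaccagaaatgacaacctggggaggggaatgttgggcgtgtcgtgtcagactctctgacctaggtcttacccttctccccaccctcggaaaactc
F11r: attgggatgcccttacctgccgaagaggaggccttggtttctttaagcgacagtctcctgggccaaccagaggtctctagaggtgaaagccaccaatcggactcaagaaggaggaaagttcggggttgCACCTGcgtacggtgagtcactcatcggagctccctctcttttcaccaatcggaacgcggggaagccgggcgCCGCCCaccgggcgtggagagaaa
The Cldn2 window holds a TATA box 35 bases before the start and a CDX-type motif 244 bases before it. Of all 32851 RefSeq windows of 250 bases, 12.4% hold TATAAA and 10.8% hold TTTATG. No other member had either motif in its window. The Cldn3 window holds 1 GC box, a motif of 32.7% of all windows, 236 bases before the start. The Cldn7 window shown holds none of the 6 motifs. The window of its further start, not shown, holds a GC box 6 bases before that start and CAGGTG at 97 and 57 bases. The F11r window was cut at the gene start used here, so that 224 bases are shown. It holds a GC box at 50 bases and CAGGTG, found in 17.2% of windows, at 122 bases. Both distances are counted from the RefSeq start, which lies further inside the gene. AGATAA (10% of windows) and GTTAAT (6.4%) were in no member's window. These matches describe letters only.

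The counts summed to 14749669 to 18744592 in a WT mouse and to 15822384 to 21557468 in an IKO mouse. Ncor1, the targeted gene, fell in IKO mice by 1.41 on the log2 scale (SE 0.18, edgeR adjusted p = 0.00051). The share of mitochondrial transcripts was 50.3% in IKO 4, 23.9% in WT 3 and 3.49% to 10.3% in the other mice. All 12 enterocyte markers were measured, led by Fabp2, and their summed FPKM ran from 14035 to 76718 in WT and from 40198 to 64162 in IKO mice. The 5 markers of ileal enterocytes, led by Fabp6, summed to between 480 FPKM in IKO 1 and 16274 FPKM in WT 4, and both groups covered most of that range. Smooth muscle markers, led by Acta2, summed to 3992 FPKM in WT 4 and to at most 292 FPKM elsewhere. The part of these differences in the results was not tested.

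Cldn7 was the most abundant member per length and Cldn8 the least. In FPKM, the deposited level per kilobase of gene, Cldn7 stood at 688 ± 207 (SD, n = 14) and Cldn3 at 441 ± 143. Cldn7 exceeded Cldn3 in 13 of 14 mice, all but IKO 4. Cldn15 followed at 200 ± 76.8 FPKM, Cldn4 at 114 ± 54.2 and F11r at 107 ± 33.7. Cldn3 exceeded Cldn15 in 12 mice and Cldn15 exceeded Cldn4 in all 14, but Cldn4 exceeded F11r in only 8, so the level of that pair did not differ beyond its spread. A lower tier held Ocln at 24.3 ± 11.5 FPKM, Cldn23 at 21.1 ± 8.79, Cldn2 at 15.9 ± 13.3 and Tjp1 at 15.3 ± 7.09. Ocln exceeded Cldn23 in 11 mice, whereas Cldn23 exceeded Cldn2 in 8 and Cldn2 exceeded Tjp1 in 6. Cldn8 stood at 0.808 ± 0.902 FPKM, below Tjp1 in all 14 mice. Of 23 numbered claudin genes in the table, 9 reached 100 counts over all mice and 6 had no read in any.

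**Figure D1:**
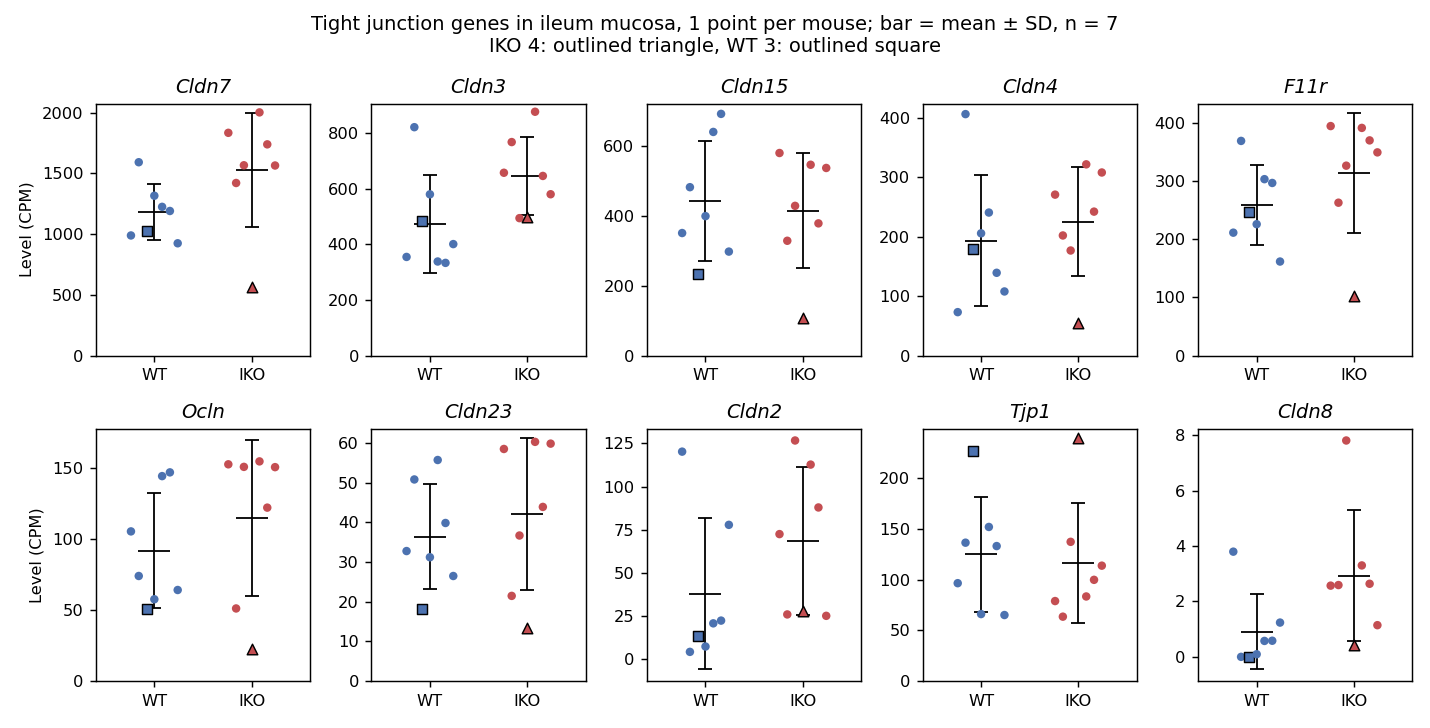
Level of each member per mouse in CPM (counts scaled to the size of the library, linear axes), WT in blue and IKO in red, panels in the order of mean FPKM, with bars for mean ± SD (n = 7). The groups overlap in every panel, and the outlined triangle, IKO 4, is the lowest of the 14 mice for Cldn4, Cldn7, Cldn15, Cldn23, Ocln and F11r and the highest for Tjp1.

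Whether the loss of epithelial NCoR1 went with other levels of these genes was asked by comparing IKO with WT mice. No member passed an adjusted p of 0.05 in edgeR's quasi-likelihood test, in which 8.67% of the 13846 genes tested did (4.38% higher and 4.28% lower in IKO mice). None had an unadjusted p under 0.05 there either, against 30.4% of all genes. In DESeq2, 0 members passed the adjusted threshold, against 13.8% of genes given an adjusted p there, and 2, Cldn3 and Cldn8, had an unadjusted p under 0.05, against 18.1% of all genes with a p. CPM values of the groups overlapped for all 10, whereas for 3.1% of all genes they did not (1.83% higher and 1.26% lower in IKO mice). The log2 fold change was above 0 for 8 of 10 members with a median of 0.30, beside a median of -0.09 over all genes tested, 43.5% of which were above 0. The intervals were wide. The upper bounds of the fold ran from 1.497 for Tjp1 to 11.3 for Cldn8, and all lower bounds lay below 1.

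**Figure D2:**
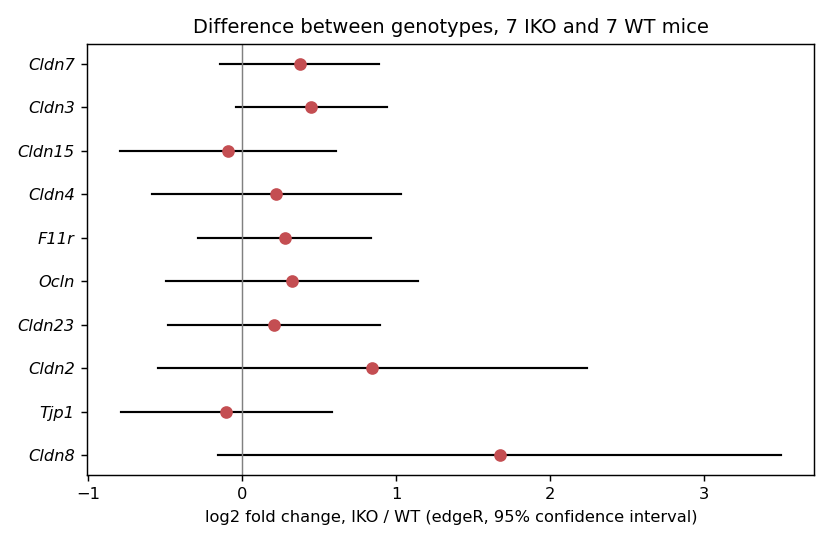
Difference between 7 IKO and 7 WT mice for each member, as log2 fold change from edgeR (point) with its 95% confidence interval (line); the vertical line marks no difference. All 10 intervals cross 0, and those of Cldn8 and Cldn2 are the widest.

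Among the claudins that form cation pores, Cldn2 differed several-fold between mice of one genotype, and Cldn15 had nearly the same mean level in both. Cldn2 lies at chrX:139800828-139811386 (plus strand, build GRCm38, as all positions that follow). Its level in CPM, the counts scaled to the size of the library, was 4.32 in the lowest WT mouse, 20.8 at the median and 120 in the highest, and in IKO mice 25.2, 72.5 and 127. All 7 IKO mice lay above the WT median, but WT 1 (120 CPM) and WT 7 (77.8 CPM) lay above most of them. Cldn2 averaged 38.0 ± 43.9 CPM in WT and 68.4 ± 42.9 CPM in IKO mice (SD, n = 7), a log2 fold change of 0.85 (SE 0.66, edgeR adjusted p = 0.396) and a fold of 1.80 with a 95% interval of 0.686 to 4.71. The mean log2 level differed by 1.39 (exact permutation test, two-sided, p = 0.0828, over 3432 divisions of the mice). Leaving out 1 mouse at a time took that difference from 1.02 without WT 2 (exact permutation p = 0.183) to 1.81 without WT 1 (exact permutation p = 0.021), the only 1 of 14 such repeats under 0.05. The edgeR log2 fold change then ran from 0.59 without IKO 3 to 1.46 without WT 1. WT 1 and WT 7 also had the lowest summed enterocyte markers, 19904 and 14035 FPKM. Over all mice, with the genotype means removed, Cldn2 and these markers had a Pearson r of -0.72 (rho -0.67, permutation p = 0.0162, adjusted 0.108 over 180 relations), which was -0.36 without WT 1 and WT 7. Cldn15, at chr5:136966616-136975858 on the plus strand, was measured at 233, 399 and 692 CPM (lowest, median and highest) in WT and at 106, 429 and 580 CPM in IKO mice. Its log2 fold change was -0.09 (SE 0.33, edgeR adjusted p = 0.873, fold 0.939 with an interval of 0.578 to 1.52), and it took the other sign without IKO 4 (0.08), WT 5 (0.02) or WT 6 (0.05). The lowest Cldn15 level in each genotype belonged to IKO 4 and WT 3, the mice with the highest mitochondrial shares.

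Of the claudins that close the path between cells, Cldn3 and Cldn8 had smaller p-values than Cldn4. Cldn3, at chr5:134986214-134987472 on the plus strand, was measured at 334, 401 and 823 CPM in WT and at 495, 647 and 878 CPM in IKO mice (lowest, median and highest). All 7 IKO mice lay above the WT median, and of the WT mice WT 2 and WT 4 alone lay above the lowest IKO mouse. The means were 474 ± 178 CPM and 647 ± 140 CPM (SD, n = 7), with a log2 fold change of 0.45 (SE 0.23, edgeR adjusted p = 0.197) and a fold of 1.37 (95% interval 0.974 to 1.92). The mean log2 level differed by 0.50 (exact permutation p = 0.0443, not adjusted for the 10 members compared). That p was above 0.05 in 10 of 14 repeats with 1 mouse left out, up to 0.0857 without WT 6. It was under 0.05 without WT 2 (0.00641), WT 4 (0.0361), IKO 3 (0.0373) or IKO 4 (0.0373). With sample quality weights in limma-voom, Cldn3 was the only member called (log2 fold change 0.74, adjusted p = 0.0118), against 13.6% of all genes. Wbscr25, on the opposite strand, overlaps Cldn3 and took 142 counts in all mice together, against 4577 to 17022 counts of Cldn3 in each mouse.

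Cldn8, at chr16:88560828-88563183 on the minus strand, was barely expressed, with 0 counts in WT 2 and WT 3, up to 93 in the other WT mice and 4 to 141 in IKO mice. A count of 0 allows up to 0.193 CPM in WT 2 and 0.203 CPM in WT 3 (3 counts, counting error only). Its lowest, median and highest levels were 0, 0.576 and 3.80 CPM in WT and 0.437, 2.59 and 7.81 CPM in IKO mice. Of the 7 IKO mice, 6 lay above the WT median, and WT 1 lay above all IKO mice but IKO 3. Between genotypes the log2 fold change was 1.67 (SE 0.86, edgeR adjusted p = 0.200, fold 3.19 with an interval of 0.899 to 11.3). The mean log2 level, which depends on the prior count at such counts, differed by 2.27 (exact permutation p = 0.0251, not adjusted for the 10 members) and by 1.98 without IKO 3 (exact permutation p = 0.0524). Cldn4, at chr5:134945119-134946934 on the minus strand and 39279 bases from Cldn3, was measured at 73.1, 179 and 407 CPM in WT and at 54.4, 242 and 322 CPM in IKO mice. WT 2 was the highest and IKO 4 the lowest of all. For Cldn4 the log2 fold change was 0.22 (SE 0.38, edgeR adjusted p = 0.722, fold 1.17 with an interval of 0.666 to 2.04). It ran from 0.069 without WT 1 to 0.52 without WT 2, and was 0.71 with sample quality weights (limma-voom adjusted p = 0.137).

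Cldn7, a claudin that also lies along the lateral membrane, had the narrowest spread of all members in WT mice. It lies at chr11:69964779-69967885 on the plus strand and was measured at 924, 1190 and 1591 CPM in WT and at 562, 1566 and 2001 CPM in IKO mice (lowest, median and highest). Of 7 IKO mice, 6 lay above the WT median, and IKO 4 lay below every WT mouse. The coefficient of variation was 19.5% in WT and 30.6% in IKO mice. For Cldn7 the log2 fold change was 0.37 (SE 0.24, edgeR adjusted p = 0.311, fold 1.29 with an interval of 0.903 to 1.85). The mean log2 level differed by 0.30 (exact permutation p = 0.262), and by 0.53 without IKO 4 (exact permutation p = 0.0035). The edgeR adjusted p without IKO 4 was 0.0787. Cldn23, at chr8:35824712-35826559 on the minus strand, was measured at 18.1, 32.8 and 55.7 CPM in WT and at 13.4, 43.9 and 60.3 CPM in IKO mice, with a log2 fold change of 0.21 (SE 0.32, edgeR adjusted p = 0.691, fold 1.16 with an interval of 0.718 to 1.86). Its lowest WT and IKO mice were WT 3 and IKO 4.

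The other membrane proteins and the scaffold did not differ beyond the spread between mice. Ocln, at chr13:100496507-100552718 on the minus strand, was measured at 50.8, 74.1 and 147 CPM in WT and at 22.3, 151 and 155 CPM in IKO mice (lowest, median and highest). In IKO mice 5 of 7 lay between 122 and 155 CPM, while IKO 2 and IKO 4 lay at 51.2 and 22.3 CPM. The log2 fold change of Ocln was 0.32 (SE 0.39, edgeR adjusted p = 0.593, fold 1.25 with an interval of 0.710 to 2.21). F11r, at chr1:171437535-171464603 on the plus strand, was measured at 161, 247 and 369 CPM in WT and at 103, 349 and 394 CPM in IKO mice, of which 6 lay above the WT median. Its log2 fold change was 0.28 (SE 0.26, edgeR adjusted p = 0.499, fold 1.21 with an interval of 0.821 to 1.79). Its mean log2 level differed by 0.21 (exact permutation p = 0.520), and by 0.46 without IKO 4 (exact permutation p = 0.0262). For F11r the edgeR adjusted p without IKO 4 was 0.157. Tjp1, at chr7:65296165-65527781 on the minus strand, was measured at 65.0, 133 and 227 CPM in WT and at 63.4, 99.7 and 239 CPM in IKO mice. Here the order of the mice was turned, with IKO 4 and WT 3 highest. The log2 fold change of Tjp1 was -0.10 (SE 0.32, edgeR adjusted p = 0.853, fold 0.931 with an interval of 0.579 to 1.497), and its sign turned without WT 3 (0.11) or IKO 2 (0.01). Of 3 genes that overlap Tjp1, Gm44794 took 2 counts and the others none.

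The balance between members with opposed or linked roles was compared as the log2 ratio of 4 pairs, and none differed with adjustment over the 4. The ratio of the pore claudins Cldn2 and Cldn15 was higher by 1.55 in IKO mice (exact permutation p = 0.0851, adjusted 0.178). That of Cldn4 to Cldn8, which interact in the collecting duct of the kidney, was lower, with a difference of -2.03 (exact permutation p = 0.0892, adjusted 0.178). On log2(FPKM + 1) it was -0.41 (exact permutation p = 0.484), so its size depends on the scale and on the offset added to Cldn8, which had 0 counts in 2 mice. Both passed the adjusted threshold without WT 1, the WT mouse with the highest Cldn2 and Cldn8, at 2.01 (exact permutation, adjusted p = 0.0455) and -2.74 (exact permutation, adjusted p = 0.042). Without IKO 4, WT 3 and WT 4 they were 1.16 and -1.32 (exact permutation, adjusted p = 0.456 for both). Cldn3 to Cldn4, neighbours on chromosome 5, differed by 0.26 (exact permutation p = 0.512, adjusted 0.661). Ocln to Tjp1 differed by 0.29 (exact permutation p = 0.661, adjusted 0.661).

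The make-up of the claudin RNA was described by the share of each claudin in the summed FPKM of the 23 numbered claudin genes. Claudin-like genes such as Cldnd1 were not in that sum. Cldn7 took between 41.7% and 48.0% in WT mice and between 36.8% and 51.4% in IKO mice. Cldn3 took 19.6% to 33.8% in WT and 25.1% to 50.6% in IKO mice. Pore claudins, Cldn2 and Cldn15 together, took 10.03% to 25.3% in WT and 7.45% to 15.3% in IKO mice. Cldn2 alone went from 0.0664% in WT 2 to 3.42% in WT 1. IKO 4 had the smallest claudin sum, 795 FPKM against 1005 to 2270 FPKM in the others, and was the only mouse in which Cldn3 outweighed Cldn7. WT 5 and WT 6 had the largest shares of Cldn15, 21.9% and 24.8%, and the smallest of Cldn3.

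**Figure D3:**
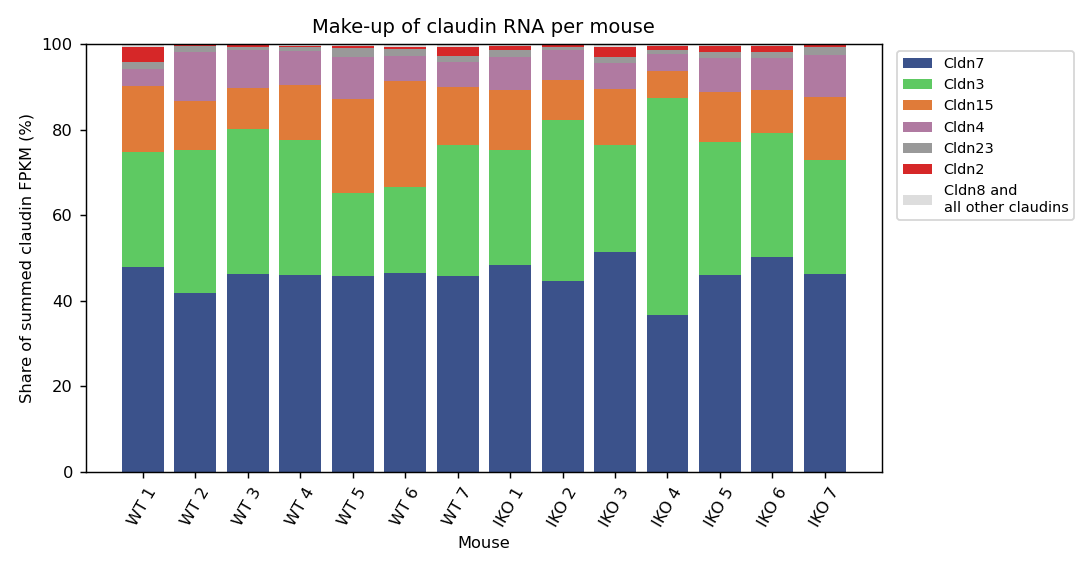
Share of each claudin in the summed claudin FPKM of each mouse (%, stacked bars from 0 to 100), 7 WT mice on the left and 7 IKO mice on the right. Cldn7 (dark blue) and Cldn3 (green) make up most of every bar, and the bar of IKO 4 shows the largest green part, 50.6%.

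Several members deviated together from their genotype mean in the same mice. IKO 4 lay below its genotype mean for 9 of 10 members, with a median deviation of -1.48 log2 units and -2.10 for Ocln, while its Tjp1 deviated by 1.17. WT 3 deviated alike for Tjp1 (0.99) and lay below the WT mean for 7 members. WT 1 and WT 7 stood out for high Cldn2 and Cldn8, and WT 2 for low Cldn2 (-2.26).

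**Figure D4:**
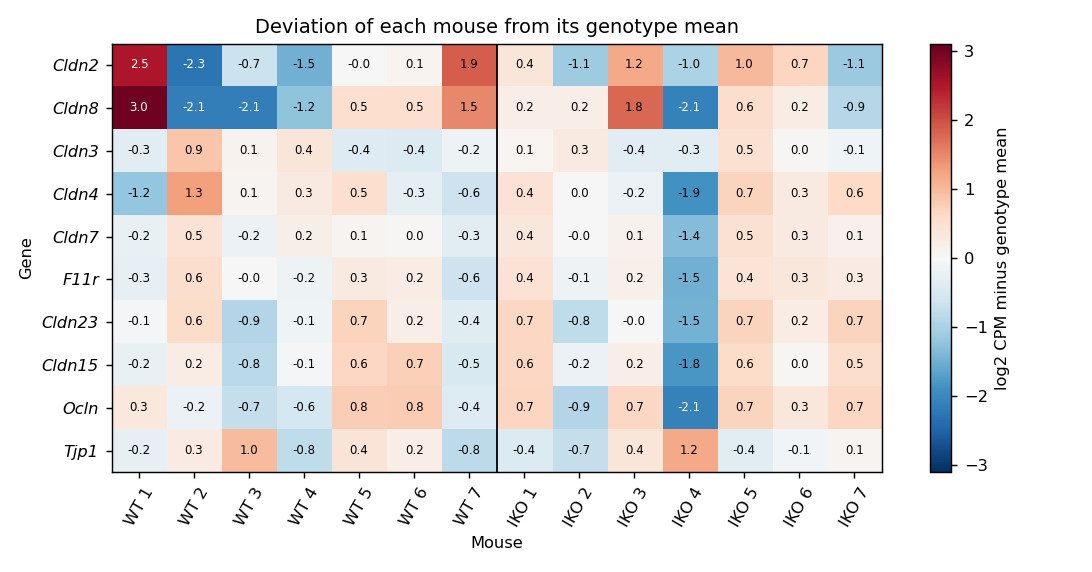
Deviation of each mouse (columns, WT left of the line, IKO right) from its genotype mean for each member (rows), in log2 CPM, red above and blue below the mean. The column of IKO 4 is blue for every member but Tjp1, and the rows of Cldn2 and Cldn8 hold the largest deviations.

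With the genotype means removed, 14 of 45 pairs of members were correlated over the 14 mice at an adjusted p under 0.05 (100000 permutations within genotype), all with a positive sign. Of these, 7 remained so when 2 mice were left out, and 8 remained without IKO 4, WT 3 and WT 4. The 2 mice were chosen for each pair anew, as those farthest from the median of its first-named member only. Pairs of other genes were not examined, so it is not known whether 14 of 45 is more than they would give. Cldn7 and F11r had the closest relation (r 0.95, rho 0.86, permutation p = 8e-05, adjusted 0.0012), with an r of 0.79 without IKO 4 and WT 7. Cldn2 and Cldn8 had an r of 0.88 (rho 0.86, permutation p = 6e-05, adjusted 0.0012), which was 0.84 without IKO 3 and WT 2. They share a high level in WT 1 and IKO 3 and a low one in WT 2, WT 3 and WT 4. Cldn15 was correlated with Cldn23 (r 0.91, rho 0.85, permutation p = 4e-05, adjusted 0.0012) and with Ocln (r 0.91, rho 0.89, permutation p = 0.00015, adjusted 0.00169). Without IKO 4 and WT 3 these values of r were 0.80 and 0.76. Cldn4 and Cldn7 had an r of 0.89 (rho 0.82, permutation p = 0.00026, adjusted 0.00234), and 0.82 without IKO 4 and WT 1. Tjp1 was in none of the 14 pairs, and Cldn3 only in that with Cldn4 (r 0.64, rho 0.58, permutation p = 0.0151, adjusted 0.0487, and 0.61 without IKO 5 and WT 6). IKO 4, the mouse left out most often here, also had the highest mitochondrial share, whose part was not tested.

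Tjp1 went against the goblet cell markers instead. The 7 markers, led by Tff3, were all measured, and their summed FPKM ran from 2098 to 11050 in WT and from 3400 to 11585 in IKO mice. WT 3 had the lowest sum and the second highest Tjp1, and IKO 4 the second lowest sum and the highest Tjp1. The correlation was r -0.92 and rho -0.90 (permutation p = 1e-05, the smallest the permutations can give, adjusted 0.0018 over 180 relations of members with marker lists and the mitochondrial share, chosen after the data were seen). It was -0.91 without IKO 1 and WT 3 and -0.82 without IKO 4, WT 3 and WT 4. The mitochondrial share, highest in the same pair of mice, had an r of 0.75 with Tjp1 (rho 0.44, permutation p = 0.00518, adjusted 0.0777), which was 0.27 without IKO 4 and WT 3. Its part in the relation with the goblet cell markers was not tested.

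**Figure D5:**
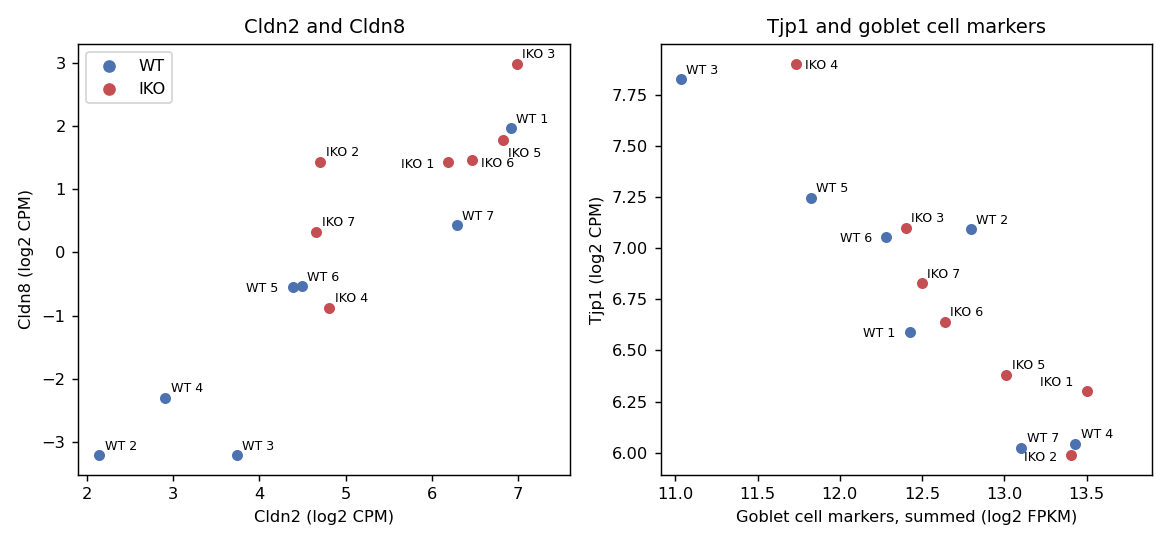
Left, Cldn8 against Cldn2, both in log2 CPM; right, Tjp1 (log2 CPM) against the summed goblet cell markers (log2 FPKM); 1 point per mouse, WT blue and IKO red. Cldn8 goes up with Cldn2 and Tjp1 goes down along the marker axis, in both genotypes. With the genotype means removed, unlike the points shown, r was 0.88 and -0.92.

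For the 3 members with the largest log2 fold change, the genes most like them over the 14 mice were sought among 8210 genes by Pearson's r of the log2 level. Closest to Cldn8 were Cpt1a, which brings fatty acids into mitochondria (r 0.93, rho 0.86), Acacb, an acetyl-CoA carboxylase (r 0.89, rho 0.75), and Aacs, acetoacetyl-CoA synthetase (r 0.88, rho 0.86). Closest to Cldn2 were Tspan1, a tetraspanin (r 0.94, rho 0.90), Fgfbp1, which binds fibroblast growth factors (r 0.91, rho 0.86), and again Cpt1a (r 0.86, rho 0.83). Closest to Cldn3 were Ctdnep1 (r 0.92, rho 0.88), Rnf167 (r 0.91, rho 0.89) and Pi4k2a (r 0.90, rho 0.89). These values include the difference between genotypes and were the highest of many, so they are descriptions without a test.

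Outside the members, none of the listed genes of tight junctions, adherens junctions or desmosomes was called in edgeR, against 8.67% of all genes tested. Of 19 other claudin and claudin-like genes, only Cldn12 and Cldnd1 were expressed enough to test, and neither was called. Of 12 other membrane proteins of the junction 8 were tested, 0 were called and the median log2 fold change was 0.08. The most abundant, Crb3, a polarity protein of the luminal membrane, stood at 62.6 FPKM in WT and 80.3 FPKM in IKO mice on average (log2 fold change 0.32, SE 0.22, edgeR adjusted p = 0.339). Of 27 scaffold and polarity genes 24 were tested, 0 were called and the median was 0.02. Tjp3, which encodes the scaffold ZO-3, stood at 54.5 and 79.3 FPKM (log2 fold change 0.50, SE 0.17, edgeR adjusted p = 0.0737). Of 20 genes of adherens junctions and desmosomes 19 were tested and 0 were called, 15 of them with a log2 fold change above 0 and a median of 0.26. The abundant ones were the cadherins Cdh1 (log2 fold change 0.46, adjusted p = 0.295) and Cdh17 (0.51, adjusted p = 0.409), the catenins Ctnna1 (0.33, adjusted p = 0.218) and Ctnnb1 (0.53, adjusted p = 0.523), and Jup (0.34, adjusted p = 0.441). Epcam (0.21, adjusted p = 0.711), Dsp (0.26, adjusted p = 0.583), Pkp3 (0.02, adjusted p = 0.961) and Perp (0.01, adjusted p = 0.980) completed them. An unadjusted p under 0.05 was found for 0 of the other claudins, 2 of the membrane proteins, 4 of the scaffolds and 1 of the adherens junction and desmosome genes, against 30.4% of all genes. In DESeq2, where 13.8% of genes passed the adjusted threshold, 5 did, named after their values were seen. Marveld3 (log2 fold change 0.58, DESeq2 adjusted p = 0.0254), Tjp3 (0.54, adjusted p = 0.0185) and the polarity kinase Prkcz (0.48, adjusted p = 0.0241) were higher in IKO mice there. Jam3 (-2.71, adjusted p = 0.0397) and Magi2 (-1.91, adjusted p = 0.0456), both too weakly expressed for the edgeR filter, were lower. Jam3 stood at 0.767 ± 1.32 FPKM in WT and 0.116 ± 0.119 FPKM in IKO mice (SD, n = 7), the WT spread being larger than the mean. Markers of smooth muscle and fibroblasts had a median log2 fold change of -3.096 and -2.003, and WT 4 had the highest sum of both, 3992 and 43.2 FPKM (led by Acta2 and Dcn). The part of these cells in Jam3 and Magi2 was not tested. The edgeR adjusted p was 0.0609 for Marveld3 and 0.0757 for Prkcz. Sample quality weights in limma-voom, with 13.6% of all genes called, also called Marveld3, Tjp3 and Prkcz (limma-voom adjusted p = 0.0149, 0.0311 and 0.0497).

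Of 19 transcription factors of the epithelium 17 were tested, and 2 rose. Vdr, the vitamin D receptor, rose from 274 ± 56.8 CPM in WT to 527 ± 65.2 CPM in IKO mice (SD, n = 7; log2 fold change 0.94, SE 0.17, edgeR adjusted p = 0.00549), with no overlap between the groups. It was called under all 25 alternatives. Elf3, an ETS factor of epithelial cells, rose from 224 ± 66.3 to 386 ± 77.7 CPM (log2 fold change 0.79, SE 0.20, edgeR adjusted p = 0.0277). Its adjusted p lay between 0.0518 and 0.0633 without WT 1, WT 4, WT 7, IKO 2 or IKO 5, and was 0.0855 without IKO 4, WT 3 and WT 4. The other abundant factors did not pass the test, with log2 fold changes of 0.27 for Cdx1 (adjusted p = 0.401), 0.16 for Cdx2 (adjusted p = 0.523), 0.47 for Hnf4a (adjusted p = 0.107) and 0.19 for Hnf4g (adjusted p = 0.868). Hnf4a was called in DESeq2 (log2 fold change 0.51, DESeq2 adjusted p = 0.0322). The edgeR log2 fold changes of Klf4 and Klf5 were 0.52 (adjusted p = 0.187) and 0.19 (adjusted p = 0.562). Summed over these lists beside the members, 2 of 70 genes were called, against 8.67% of all genes tested.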

How the data were processed

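RNA of scraped ileum mucosa from 7 WT and 7 IKO mice was measured. Titles gave the groups, and columns named KO are IKO. Per the labels and methods, the authors made libraries with a NEBNext Ultra kit and sequenced paired ends. Their processing notes name HISAT2 2.0.5, featureCounts 1.5.0-p3, DESeq2 1.16.1 and build mm10. Strand settings are not given in the sources used here. The deposited counts are whole reads per gene without normalization. The deposited FPKM are these counts per kilobase of gene length, divided by the DESeq2 size factor times 1 constant. This held in all 14 samples. Positions of the 10 members match GENCODE vM21.

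Counts were filtered with filterByExpr, scaled by TMM and fitted with edgeR 4.0.16 (quasi-likelihood) in R 4.3.3. Genotype was the model's single term, and p-values were adjusted by Benjamini-Hochberg over 13846 genes. CPM use TMM library sizes, with a prior count of 2 on the log2 scale. Standard errors are the log2 fold change over the square root of F, and intervals are at 95%. Depth was 14749669 to 21557468 counts a sample. Exact permutation tests were two-sided over all divisions into 7 and 7. Alternatives were DESeq2 1.42.0, RLE factors, nuclear genes only, a filter of none or of 10 counts in each library, limma 3.58.1 on log2 FPKM with pseudocounts of 1 and 0.1 (over 0.5 FPKM in at least 7 samples, and unfiltered), limma-voom with sample weights, the sample number as a block, and samples left out. The scripts were tested on simulated data.

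The members, lists and alternatives were chosen with earlier results of these data known. Named are the 10 members, list genes with an adjusted p under 0.05 or a mean above 50 FPKM, the most abundant marker of each cell list printed, and the 3 genes most like each of 3 members among genes with a mean log2 level of at least 3. Of 17 cell lists, those for enterocytes, ileal enterocytes, goblet cells, smooth muscle, fibroblasts and the lower villus are printed. Relations with markers were added after the data were seen.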

Additional observations from a re-analysis of the deposited data

Results flagged for a closer look

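IKO 4 was set apart from the other 6 IKO mice for 4 members and 1 ratio, each time as the lowest mouse. The gap to the next mouse took 0.663 of the whole IKO range for Cldn4 (5.77 log2 CPM in IKO 4), 0.730 for Cldn7 (9.14 log2 CPM), 0.665 for Cldn15 (6.73 log2 CPM) and 0.698 for F11r (6.68 log2 CPM), above Dixon's critical value for 7 samples. For the log2 ratio of Ocln to Tjp1 it took 0.711 (-3.42 in IKO 4). In all, 32 groups of 7 over 16 measures were examined and 5 were set apart. Chance alone gives about 1 in 20 for a single group. All 5 were the same mouse in measures partly correlated with each other, so they are not 5 independent results. The same mouse had 50.3% of its counts on mitochondrially encoded genes. The part of that share in these levels was not tested.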

How the results depend on the processing

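No member was called under any alternative but limma-voom sample weights, which called 1, Cldn3 (log2 fold change 0.74). Of 249 fits of members under 25 alternatives, 243 kept direction and side of the threshold. Cldn8 was not tested with at least 10 counts in every sample. Over all genes, 1200 were called, against 2444 in DESeq2, 508 without a filter on low counts, 614 in limma on unfiltered log2 FPKM, 1889 with sample weights, 362 with the replicate block and 433 without IKO 4, WT 3 and WT 4; with 1 mouse left out the count ran from 515 (without IKO 5) to 1371. Of the 70 other genes of the junction and transcription factor lists 2, Vdr and Elf3, were called, against 8 in DESeq2, which tested more genes, 6 with sample weights (Ehf among them, at -0.78), 1 with the replicate block (Vdr, while Elf3 had an adjusted p of 0.0541), 1 without those 3 mice and 1 to 4 with 1 mouse left out. The replicate block, tried because the groups share numbers, called 0 members; same-numbered mice correlated between -0.31 and 0.23, so they are not pairs, and only 1 of 7 correlated best with its own number. Members with an exact permutation p under 0.05 numbered 2, and 1 to 4 with 1 mouse left out. That test was run on the members only, so no share of all genes stands beside it. In edgeR, 30.4% of all genes tested had an unadjusted p under 0.05. Ratios of member pairs with an adjusted exact permutation p under 0.05 numbered 0, and 0 to 2 with 1 mouse left out. Correlated pairs fell from 14 to 7 without the 2 mice farthest for the first-named member of each pair. They fell to 9 without IKO 4, WT 3 and WT 4, a setting chosen after seeing the data. With 1 mouse left out, the edgeR log2 fold change ran from -0.20 to 0.081 for Cldn15, turning sign without WT 5, WT 6 or IKO 4, and from -0.38 to 0.11 for Tjp1, turning sign without WT 3 or IKO 2. The difference in mean log2 CPM ran from -0.30 to 0.14 for Cldn15 (sign turned without IKO 4), from -0.034 to 0.36 for Cldn23 (WT 3) and from -0.30 to 0.059 for Tjp1 (WT 3 or IKO 2), and the log2 ratio of Ocln to Tjp1 from -0.00019 (WT 3) to 0.83. Beyond the mice left out, the cause was not tested. Depth limits Cldn8, with 0 counts in 2 mice.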

Other observations

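Among the 180 relations of members with marker lists and the mitochondrial share, 5 had an adjusted p under 0.05, with genotype means removed and permutations within genotype. Beside Tjp1 with the goblet cell markers, these were 3 members with the enterocyte markers and Ocln with markers of the lower villus. Cldn4 and the enterocyte markers had an r of 0.75 (rho 0.66, permutation p = 0.00051, adjusted 0.0205), Cldn7 an r of 0.58 (rho 0.58, permutation p = 0.00015, adjusted 0.0135) and F11r an r of 0.63 (rho 0.56, permutation p = 0.00057, adjusted 0.0205). Without WT 1 and WT 7 these values of r were 0.73, 0.64 and 0.57, and without IKO 4, WT 3 and WT 4 they were 0.84, 0.81 and 0.86. Ocln had an r of 0.72 with the 8 markers of the lower villus, led by Reg3b (rho 0.75, permutation p = 0.00043, adjusted 0.0205), and 0.71 without WT 3 and WT 4. Adjusted p-values of the rank correlation were under 0.05 for Tjp1 with the goblet cell markers (0.018) and for none of the other 4 (0.112 to 0.204). Summed markers of the lower villus ran from 1253 to 7735 FPKM in WT and from 2396 to 6504 FPKM in IKO mice. Relations of other genes with these lists were not examined, so no share stands beside the 5.

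Cldn4 and Cldn8 had an r of -0.90 without IKO 4, WT 3 and WT 4 (permutation, adjusted p = 0.0243), beside -0.25 in all 14 (rho -0.35, permutation p = 0.394, adjusted 0.555 over 45 pairs).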
